A study of Mus musculus with 4 samples.

Results

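Potassium channel genes were examined in RNA from whole mouse testis. Members were all genes of the deposited count table whose symbol begins with Kcn followed by a lower-case letter, leaving out the antisense transcript Kcnq1ot1. The rule found 80 of the 25265 genes in the table by their symbols alone. It gathers 60 pore-forming subunits, 16 auxiliary subunits and 4 noncoding transcripts that carry the name of a neighbouring channel gene. Kcnc2 and Kcnu1 were singled out for comparison with the rest, and the result of Kcnc2 in these counts was already known. The comparison was between 2 libraries labelled control and 2 libraries labelled Ythdf2-vKO, all from C57BL/6 mice at postnatal day 56. The series title describes the mutants as germ cell-specific. The driver of the deletion, the deleted segment and the alleles that the controls carry are not given in the sources used here, and the labels do not say that the libraries are from different animals. All p-values therefore measure the spread between these libraries, which may be technical.

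Potassium channels let potassium ions leave or enter a cell along their electrochemical gradient and so set the resting potential and shape electrical signals. Voltage-gated, SLO, tandem-pore, inward rectifier and small or intermediate conductance calcium-activated channels are built from different pore subunits that share a selectivity filter, and auxiliary subunits tune their gating and traffic. In sperm, a pH- and voltage-sensitive SLO channel encoded by Kcnu1 carries the main potassium current, which hyperpolarises the cell during capacitation, and Lrrc52 encodes its auxiliary subunit. YTHDF2 is a cytoplasmic reader of N6-methyladenosine that promotes the decay of the messages it binds.

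The coding sequence of the selectivity filter is shown for 7 pore genes on which the results turn, because it is the stretch that all pore subunits share and shows where they differ within it. Coding sequences came from the GENCODE M21 annotation of GRCm38. A script searched for 5 codons in a row that read, by the genetic code, threonine or serine, then valine, isoleucine, leucine, threonine or methionine, then glycine, then tyrosine, phenylalanine or leucine, then glycine. The 27 bases printed are 9 codons on the coding strand, 5′ to 3′, and the capitals mark the fourth codon of those 5, where subunits carry tyrosine, phenylalanine or leucine.
Kcnc2 (chr10:112456220-112456246, plus strand): accatgactaccttaggtTACggggat
Kcnc1 (chr7:46427964-46427990, plus strand): accatgacgacactgggcTATggagac
Kcnh3 (chr15:99232920-99232946, plus strand): agtctcaccagtgtgggcTTCggcaac
Kcnh2 (chr5:24325552-24325578, minus strand): agcctcaccagcgtgggcTTTggcaat
Kcnu1 (chr8:25881381-25881407, plus strand): acaatgtcaactgttggcTTTggggac
Kcnma1 (chr14:23528410-23528436, minus strand): acaatgtctacagtgggtTATggggac
Kcnt1 (chr2:25894358-25894384, plus strand): actttctcaactgtgggcTTCggtgat
All 60 pore genes held the pattern, against 214 of 15692 other protein-coding genes (1.36%). The pattern was written to describe the selectivity filter, so its presence in pore genes was largely set in advance. The 60 include genes with too few counts to be tested, while the other genes were all tested. Tandem-pore subunits hold the pattern more than once, so the 60 genes gave 69 matches. The fourth codon encoded tyrosine in 44 of these, phenylalanine in 22 and leucine in 3. It was a phenylalanine codon in all 8 Kcnh genes, in Kcnu1, Kcnt1 and Kcnt2, and in the inward rectifiers Kcnj8 and Kcnj11. The other 9 phenylalanine matches lay in tandem-pore genes, Kcnk13, Kcnk2 and Kcnk5 among them. Kcnc2 and Kcnc1 both carry a tyrosine codon. A match describes letters only and says nothing about channel function.

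The 4 libraries held 24862518 and 29561182 counts (control) and 26298245 and 26265700 counts (Ythdf2-vKO). The targeted gene, Ythdf2 (chr4:132184912-132212303, minus strand), had 1193 and 1604 counts in the control libraries and 1774 and 1807 in those labelled Ythdf2-vKO. Its log2 fold change was 0.35 (SE 0.13). Its adjusted p was 0.238 (edgeR quasi-likelihood F test, Benjamini-Hochberg). Ythdf2 was not lower under any of the 13 alternatives tried. The counts of the targeted gene thus show no loss in the libraries labelled Ythdf2-vKO. They are counts of the whole gene and the deleted segment is not given, so they cannot decide whether a segment was deleted. Directions below are stated for the libraries labelled Ythdf2-vKO. Testis markers were present in every library: 6 elongating spermatid markers summed to between 6223 and 8259 CPM, counts scaled by library size, and 2 epididymis markers in the table summed to at most 0.374 CPM. Control replicate 2 differed from the others in GC content: the Spearman correlation of its deviations with transcript GC over 17817 genes was -0.40, against 0.024, 0.254 and 0.189 in control replicate 1 and Ythdf2-vKO replicates 1 and 2.

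Per kilobase of exon, the family was dominated by a few genes. Levels are given as CPM per kb, the mean of the 4 libraries, with CPM scaled by the trimmed mean of M-values. The median member stood at 0.577 CPM per kb among those tested, against 3.13 for all genes tested. The noncoding transcript Kcnmb4os1 was highest at 107, and its libraries ranged from 91.3 to 115. Kcne3, an auxiliary subunit that modifies Kcnq1 channels, followed at 51.5, with libraries from 46.8 to 54.9. Kcnu1 came next at 31.3 and was the highest of the pore-forming subunits. The ranges of these 3 genes over the libraries did not overlap each other, nor that of the next gene. They held between 58.3% and 62.8% of the family's summed CPM per kb in each library.

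Below Kcnu1, neighbours in the order were often not separable. Kcnmb4, the auxiliary subunit of the large conductance calcium-activated channel in neurons, had 19.6 CPM per kb. The noncoding Kcnab3os had 14.9 and the inward rectifier subunit Kcnj9, which forms G protein-gated channels with related subunits, had 13.7. Library ranges overlapped between Kcnmb4 and Kcnab3os and between Kcnab3os and Kcnj9. Kcng4, a modulatory voltage-gated subunit that forms no channel by itself, came next at 7.58 and was apart from Kcnj9. The noncoding Kcnmb4os2 (7.01), the tandem-pore subunit Kcnk5 (5.90) and the calcium-binding auxiliary subunit Kcnip2 (5.75) overlapped their neighbours in turn. The first 10 genes held between 80.5% and 85.8% of the sum, and 26 members had at least 1 CPM per kb.

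**Figure D1:**
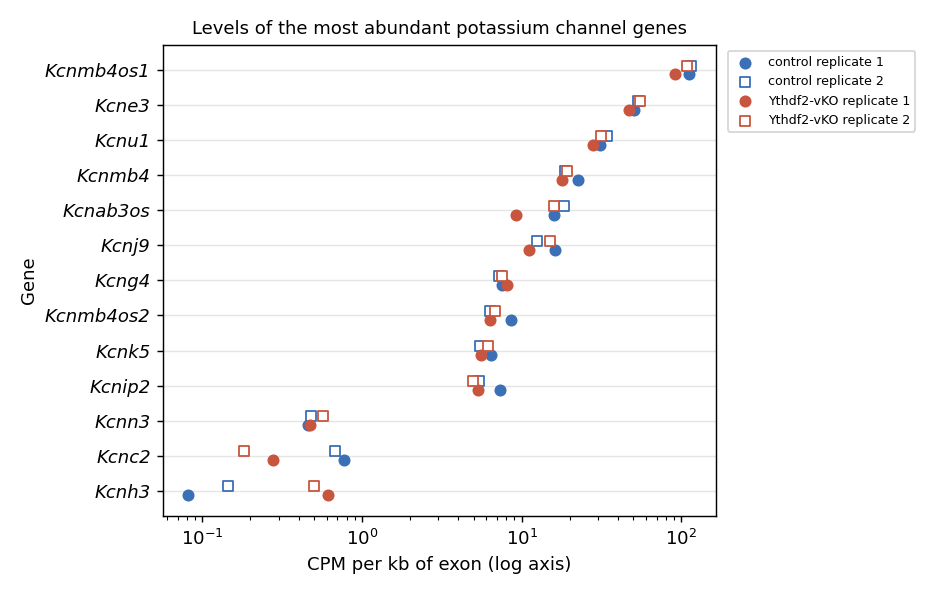
Levels in CPM per kb of exon (log axis) in each of the 4 libraries for the 10 members with the highest mean level, with Kcnn3, Kcnc2 and Kcnh3 added below them; each point is 1 library. Among the 10 highest members the spread between libraries is widest in Kcnab3os, while Kcnh3 and Kcnc2 separate by group in opposite directions.

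In none of these 10 genes did the groups differ by the test. Kcne3 had 2108 and 2859 counts in the control libraries against 2229 and 2633 in those labelled Ythdf2-vKO. Its log2 fold change, always given as Ythdf2-vKO minus control, was -0.037 (SE 0.13). Kcnj9 had 1631 and 1609 counts against 1267 and 1729, and its log2 fold change was -0.15. Kcng4 had 670 and 826 counts against 819 and 771, with a log2 fold change of 0.074. For Kcnk5 the counts were 510 and 558 against 505 and 569, with a log2 fold change of -0.015. In each of these 4 genes the groups overlapped. Their log2 fold changes changed sign under another scaling, with an offset for GC content or without 1 library. Kcnip2 had 592 and 565 counts against 497 and 465, so the libraries labelled Ythdf2-vKO were lower, and its log2 fold change was -0.30 (SE 0.17, unadjusted p 0.103). Kcnab3os was also lower in those libraries, with 9.07 and 10.4 CPM against 5.23 and 9.01 CPM, and its log2 fold change was -0.45 (SE 0.24, unadjusted p 0.090). Both values depended on which library was left out: Kcnip2 ran from -0.50 to -0.080 and Kcnab3os from -0.90 to -0.11.

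The Kcnmb4 locus contributed 3 of the 10 highest genes. Kcnmb4os1 had 2168 and 2833 counts in the control libraries against 2014 and 2415 in those labelled Ythdf2-vKO, Kcnmb4os2 had 407 and 384 against 344 and 370, and Kcnmb4 itself had 1752 and 1864 against 1585 and 1737. Their log2 fold changes were -0.18, -0.18 and -0.15. The exons of Kcnmb4os1 and Kcnmb4os2 overlap exons on the opposite strand by 355 and 693 nt. The library kit was directional, but whether the counting used strand is not given in the sources used here, so the values of Kcnmb4 and its antisense neighbours cannot be assigned with certainty. Of the 80 members, 29 share exonic bases with another gene and 51 do not.

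Kcnu1 (ENSMUSG00000031576, chr8:25849623-25937939, plus strand) did not differ between the groups beyond the spread of the libraries. It had 2703 and 3845 counts in the control libraries against 2818 and 3184 in those labelled Ythdf2-vKO. On the CPM scale these were 116 and 128 against 105 and 118, or 122 ± 8.92 against 112 ± 9.02 (SD, n = 2 each). The higher mutant-labelled library lay between the control libraries. The log2 fold change was -0.13 (SE 0.13). Its adjusted p was 0.718 (edgeR quasi-likelihood F test, Benjamini-Hochberg). The log2 fold change ran from -0.21 to -0.047 over the alternatives. Kcnu1 ranked 18 of 65 from the lowest log2 fold change, and it held between 15.8% and 18.8% of the summed CPM per kb of the coding members in each library.

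The auxiliary subunit of the same channel, Lrrc52, had 499 and 775 counts in the control libraries against 466 and 504 in those labelled Ythdf2-vKO. In CPM these were 21.3 and 25.9 against 17.4 and 18.7, so the groups did not overlap. The log2 fold change of Lrrc52 was -0.39 (SE 0.16), with an unadjusted p of 0.028 and an adjusted p of 0.288 (edgeR quasi-likelihood F test, Benjamini-Hochberg). Among the other SLO genes, Kcnma1, the large conductance calcium- and voltage-activated channel, had 121 and 146 counts against 88 and 109, with a log2 fold change of -0.45 (SE 0.24, unadjusted p 0.082). The sodium-activated Kcnt1 went the other way, with 92 and 84 counts against 155 and 152 and a log2 fold change of 0.77 (SE 0.25, unadjusted p 0.0088, adjusted p 0.197 by edgeR's quasi-likelihood test). Kcnt2 had too few counts to be tested.

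Kcnc2 was the 1 member lower in the libraries labelled Ythdf2-vKO after adjustment. It encodes a voltage-gated subunit of fast delayed rectifier channels, which in neurons allow rapid firing. Kcnc2 (ENSMUSG00000035681, chr10:112271121-112467024, plus strand) had 128 and 144 counts in the control libraries against 53 and 35 in those labelled Ythdf2-vKO. These were 5.48 and 4.80 CPM against 1.98 and 1.30 CPM, or 5.14 ± 0.476 against 1.64 ± 0.483 (SD, n = 2 each). Both control libraries lay above both others, and the higher of the latter was well below the lower control. Kcnc2 fell by 1.64 on the log2 scale (SE 0.29), which is 3.13-fold lower. The adjusted p was 0.0323 (edgeR quasi-likelihood F test, Benjamini-Hochberg). Kcnc2 was singled out with an earlier result from these counts known, so this p-value is not independent support.

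This was the lowest log2 fold change of the 65 members tested. The next lowest, Kcnv2, a modulatory subunit, had a log2 fold change of -1.08 (SE 0.66) on 10 and 27 against 12 and 5 counts, and its groups overlapped. Kcnc1, of the same subfamily, did not pass the test. It had 9.28 and 8.57 CPM in the control libraries against 8.67 and 8.93 CPM in those labelled Ythdf2-vKO, with a log2 fold change of -0.020 (SE 0.18). The difference between Kcnc2 and Kcnc1 was not tested. No exon of Kcnc2 overlaps another gene. Calls over the whole table fell without either library labelled Ythdf2-vKO, and the call of Kcnc2 was among those lost. Its log2 fold change was then -1.98 without replicate 1 and -1.37 without replicate 2. The other 11 of 13 alternatives kept the call. With all 4 libraries kept, its adjusted p ran from 0.000552 to 0.0362 over the alternatives (edgeR quasi-likelihood F test or DESeq2 Wald test).

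Kcnh3 was the 1 member higher after adjustment. It encodes a voltage-gated subunit of the ether-à-go-go-like group, known from forebrain neurons, where it dampens excitability. Kcnh3 (ENSMUSG00000037579, chr15:99224861-99242817, plus strand) had 11 and 25 counts in the control libraries against 94 and 78 in those labelled Ythdf2-vKO. In CPM these were 0.471 and 0.834 against 3.51 and 2.89, or 0.652 ± 0.257 against 3.20 ± 0.439 (SD, n = 2 each). The groups were far apart, although the control counts were low. Kcnh3 rose by a log2 fold change of 2.26 (SE 0.38), which is 4.79-fold. Its adjusted p was 0.0264 (edgeR quasi-likelihood F test, Benjamini-Hochberg). Its call too was lost without either library labelled Ythdf2-vKO, where calls fell over the whole table. The log2 fold change was then 2.12 without replicate 1 and 2.40 without replicate 2. The other 11 of 13 alternatives kept the call, and the log2 fold change ran from 1.93 to 2.75 over all 13.

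Of the 80 members, 65 passed the filter on low counts, and Kcnc2 and Kcnh3 were the 2 called among them. In the whole table, 59 of 21132 genes tested were called higher (0.279%) and 24 were called lower (0.114%) at an adjusted p under 0.05. The authors' deposited table gave an adjusted p to 41 members and called the same 2 genes. Its log2 fold changes were 2.27 for Kcnh3, with an adjusted p of 0.00187, and -1.65 for Kcnc2, with an adjusted p of 0.00358.

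At an unadjusted p under 0.05, the members on one side outnumbered those on the other. Of the 65, 14 were higher in the libraries labelled Ythdf2-vKO (21.5%), against 7.65% of all genes tested. A single member, Kcnc2, was lower (1.54%), against 6.47% of all genes tested. The groups did not overlap with the libraries labelled Ythdf2-vKO higher for 22 members (33.8%), against 22.7% of all genes. They did not overlap with those libraries lower for 9 members (13.8%), against 22.6%. In the other 34 members the groups overlapped. The median log2 fold change of the 65 was 0.15, against 0.00265 for all genes. These counts are descriptions, and no test of the family as a set was made. They include Kcna6, Kcnh5, Kcnj4 and Kcnq5, which reached the filter on low counts only with the libraries labelled Ythdf2-vKO. The 14 genes summed to 56.3 and 53.2 CPM in control, against 88.3 and 82.0 in the libraries labelled Ythdf2-vKO.

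**Figure D2:**
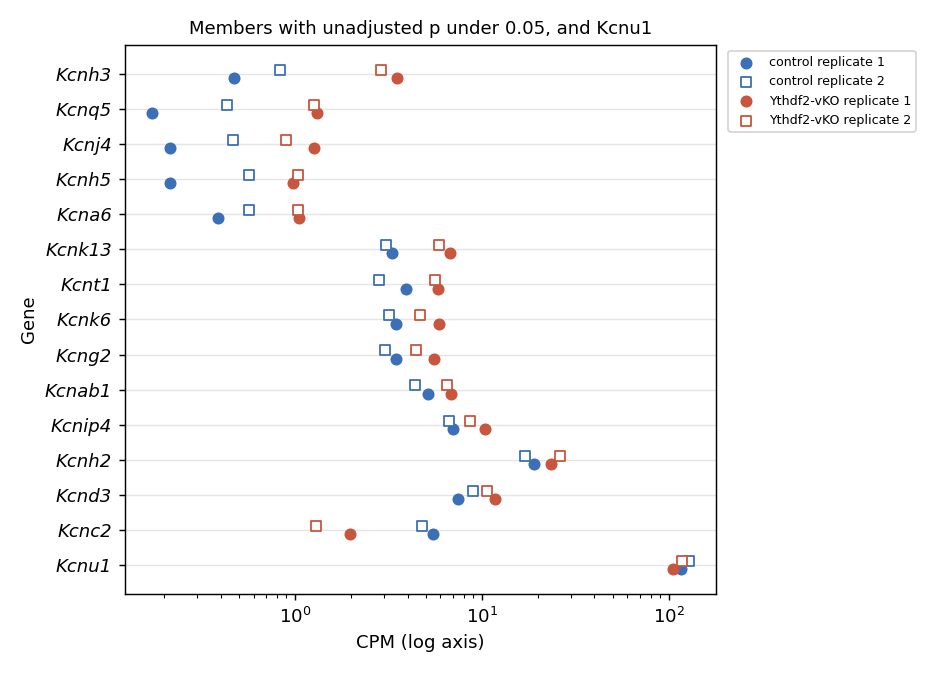
CPM (log axis) in each of the 4 libraries for the named members with an unadjusted p under 0.05, ordered by log2 fold change, with Kcnu1 added at the bottom; each point is 1 library. In Kcnc2 both control libraries lie above the others, in Kcnu1 the groups overlap, and in the remaining genes shown both control libraries lie below.

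Of the 14 genes, 8 were voltage-gated subunits, and in all 14 both control libraries lay below both others. Besides Kcnh3 these included Kcnh2, whose channel repolarises the heart muscle cell and which had the most counts of the 14. Kcnh2 had 446 and 510 counts in the control libraries against 630 and 704 in those labelled Ythdf2-vKO, and its log2 fold change was 0.46 (SE 0.15). Kcnh5, of the same subfamily, had 5 and 17 counts against 26 and 28. Kcnq5 encodes a subunit of slowly activating, non-inactivating currents known from neurons. It had 4 and 13 counts against 35 and 34, and its log2 fold change of 2.03 (SE 0.56) was the second highest of the family.

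In the A-type group, which inactivates quickly, Kcnd3 had 175 and 268 counts in the control libraries against 313 and 288 in those labelled Ythdf2-vKO. Kcnip4, a calcium-binding protein that associates with Kcnd channels, had 164 and 200 counts against 279 and 232. Their log2 fold changes were similar in size, 0.44 (SE 0.19) and 0.48 (SE 0.20). Kcna6, a delayed rectifier subunit, had 9 and 17 counts against 28 in both libraries. Kcnab1, a cytoplasmic beta subunit of Kcna channels, had 121 and 131 counts against 182 and 175. Kcng2, a modulatory subunit, had 81 and 91 counts against 148 and 120.

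The tandem-pore genes, which carry background potassium currents, gave Kcnk13 and Kcnk6. Kcnk13 had 77 and 92 counts in the control libraries against 180 and 159 in those labelled Ythdf2-vKO, so the counts of the latter were close to each other and well apart from control. Its log2 fold change was 0.99 (SE 0.23). Its adjusted p was 0.0988 (edgeR quasi-likelihood F test, Benjamini-Hochberg), the lowest after the 2 genes called. It passed the threshold in 4 of 13 alternatives, over which adjusted p ran from 0.0147 to 0.648. Kcnk6 had 81 and 95 counts against 158 and 126, with a log2 fold change of 0.67 (SE 0.25). The inward rectifier Kcnj4 had 5 and 14 counts against 34 and 24, with a log2 fold change of 1.62 (SE 0.57). Kcnh5 and Kcna6 had log2 fold changes of 1.31 (SE 0.57) and 1.11 (SE 0.51), Kcng2 of 0.62 (SE 0.25) and Kcnab1 of 0.48 (SE 0.22). Adjusted p-values of the 13 genes other than Kcnh3 lay between 0.0988 and 0.350, so none of them passed the adjusted threshold.

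**Figure D3:**
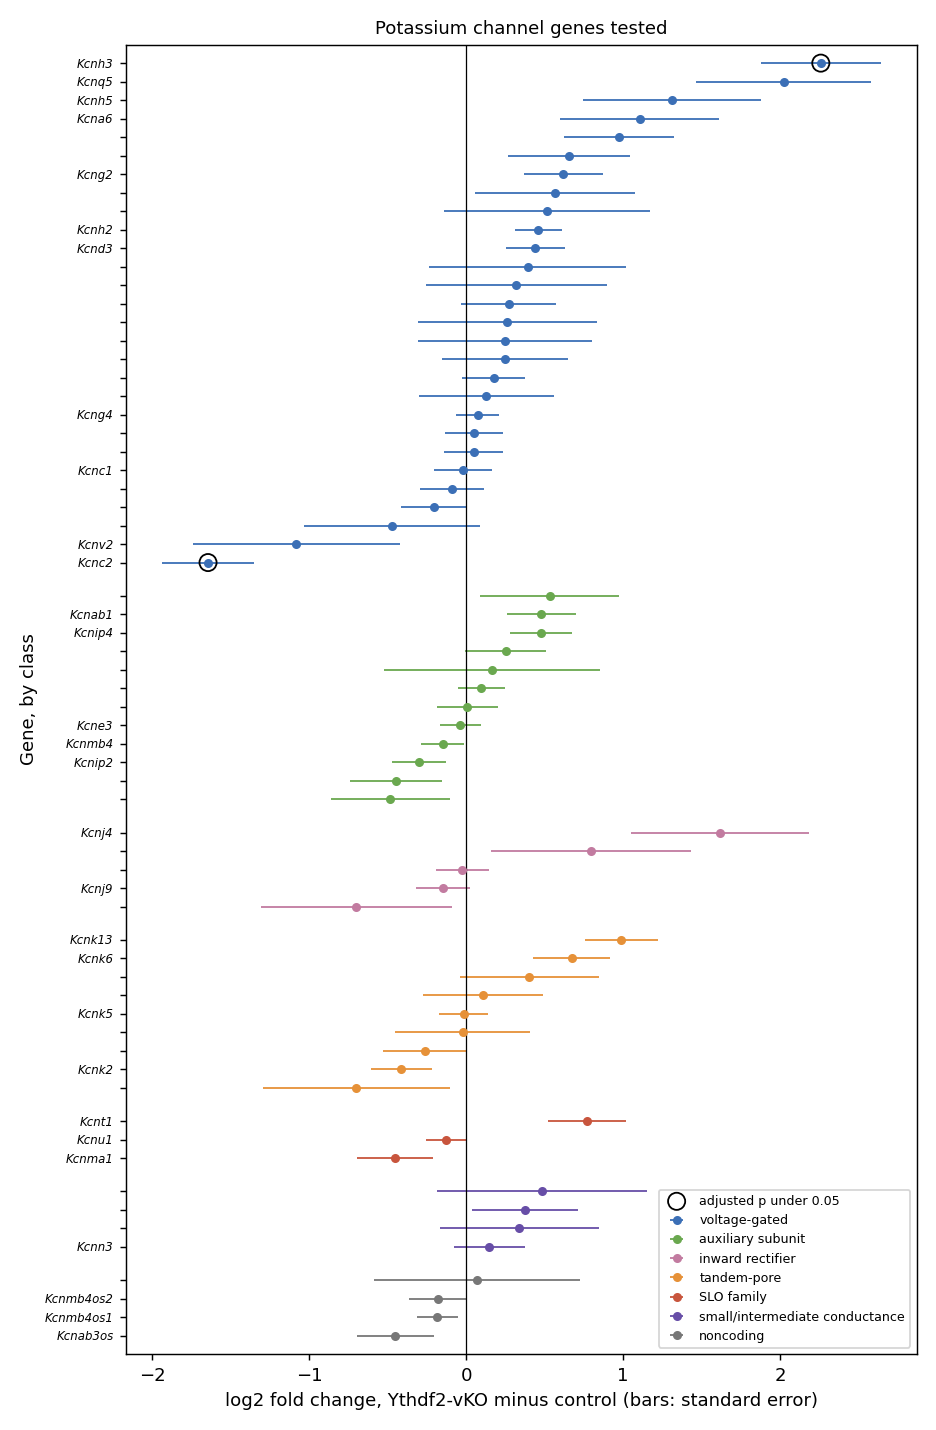
Log2 fold change (Ythdf2-vKO minus control) of each of the 65 members tested, by class; each point is 1 gene, bars are standard errors, rings mark an adjusted p under 0.05, and only genes named in the text are labelled. The voltage-gated class has the widest spread, from Kcnc2 at -1.64 to Kcnh3 at 2.26, while all 4 small and intermediate conductance genes lie above 0.

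By class, 28 of 33 voltage-gated subunits were tested, of which 22 had a positive log2 fold change. Their median was 0.27, and 8 were higher (28.6%) and 1 lower (3.57%) at an unadjusted p under 0.05. Among all genes tested, 10632 of 21132 had a positive value, 7.65% were higher and 6.47% lower. All 7 Kcnh genes tested had positive values, from 0.18 to 2.26, and did so under every scaling tried. All 4 Kcnn genes, the small and intermediate conductance channels, also had positive values, from 0.15 to 0.48 with a median of 0.36, though none reached an unadjusted p under 0.05. Kcnn3, with the most counts of these, had 112 and 150 counts in the control libraries against 132 and 160 in those labelled Ythdf2-vKO.

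Auxiliary subunits (12 of 16 tested) had a median of 0.053, with 2 higher at an unadjusted p under 0.05, and the sign of the median flipped to -0.049 with a GC offset. For the 5 of 10 inward rectifiers tested the median was -0.025, with 1 higher, and for the 9 tandem-pore subunits it was -0.015, with 2 higher. Both medians were positive when libraries were scaled by their totals alone, at 0.042 and 0.054, and with the GC offset they were -0.015 and -0.14. The 3 SLO genes tested had a median of -0.13 with 1 higher. The 4 noncoding transcripts had a median of -0.18 and none at an unadjusted p under 0.05, while with the GC offset their median was -0.36 and 2 were lower. The voltage-gated median was 0.21 with the offset, with 18 of 28 positive, 5 higher and 1 lower at an unadjusted p under 0.05.

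Members of low and of higher level are described separately. After the values were seen, the members were split at a mean of 2 CPM. Of the 28 below it, 23 had a positive log2 fold change, with a median of 0.36, against a median of 0.033 for all genes under 2 CPM. Of the 37 at or above it, 18 were positive and the median was -0.015. At an unadjusted p under 0.05, 5 members below the split were higher (17.9%), against 4.66% of all genes there. Above the split, 9 were higher (24.3%), against 8.70% of all genes there. Passing the filter through one group favours genes that differ. Of the 5, Kcna6, Kcnh5, Kcnj4 and Kcnq5 had fewer than 10 counts in a control library. They reached the filter only with the libraries labelled Ythdf2-vKO. Where at least 10 counts were required in every library, they dropped out. Then 10 of 50 members were higher (20%), against 8.01% of all genes. A further 15 members did not pass the filter. Those 15 totalled between 10 and 36 counts over the 4 libraries. In 4 of them both libraries labelled Ythdf2-vKO were higher, in 1 both were lower and in 10 the groups overlapped.

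Because control replicate 2 stood apart in GC content, the members are also given with a GC offset. Over all genes, the log2 fold change had a Spearman correlation of 0.255 with transcript GC. The median GC of the members tested was 53.9%, against 48.9% for all genes, while the 14 higher members (54.0%) hardly differed from the other 51 (53.9%). With a GC offset in the same test, 11 members were higher (16.9%), against 6.1% of all genes, and 5 were lower (7.69%), against 7.6%. All 11 were among the 14. Kcnh2, Kcng2 and Kcna6 left the count, with unadjusted p-values of 0.146, 0.142 and 0.068. The log2 fold change of Kcnh2 went from 0.46 to 0.22 and that of Kcng2 from 0.62 to 0.38, while Kcna6 went from 1.11 to 1.02. The lower count gained Kcnip2, Kcnk2, Kcnmb4os1 and Kcnmb4os2. Kcnk2, a mechanosensitive tandem-pore subunit, had 546 and 621 counts against 536 and 352, with a log2 fold change of -0.41 (SE 0.20, unadjusted p 0.056) before the offset. The family median dropped from 0.15 to 0.022, against -0.015 for all genes. Kcnh3 and Kcnc2 stayed called, with adjusted p-values of 0.0300 and 0.0216 by edgeR's quasi-likelihood test.

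**Figure D4:**
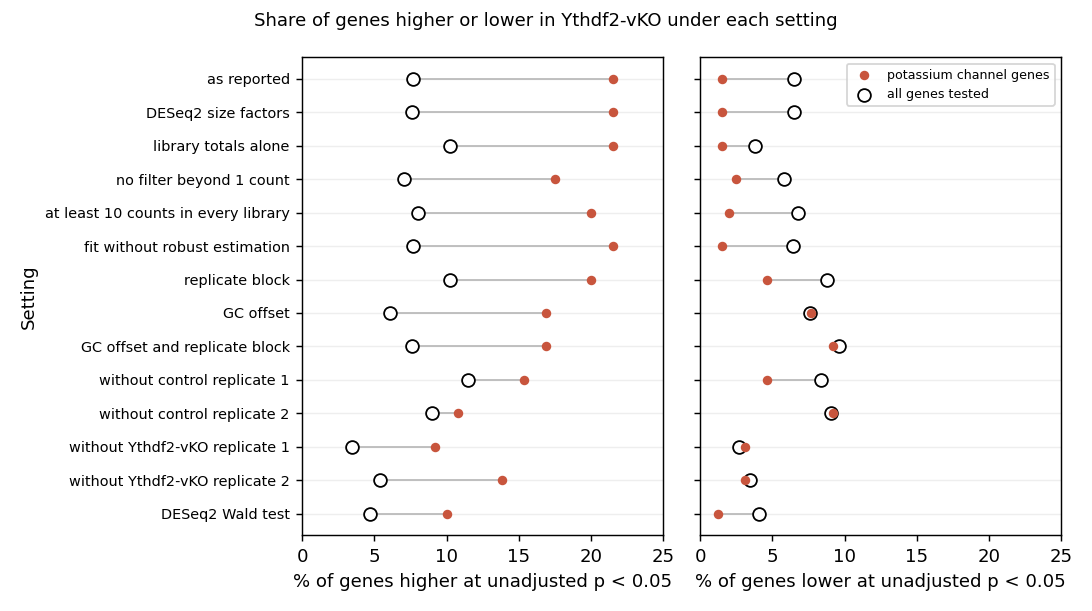
Share of members and of all genes tested (x axis, percent) that were higher or lower at an unadjusted p under 0.05, for the values as reported and for each alternative (y axis). The share of members higher exceeds that of all genes in each row, while for lower values the shares stand in either order.

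The share of members higher at an unadjusted p under 0.05 depended on which library was left out. Without control replicate 2, the library apart in GC content, the shares of members higher and of members lower were both close to those of all genes. In the other fits without 1 library, the share higher was above that of all genes but below the 21.5% of the full fit. The family median log2 fold change was 0.072 without control replicate 2 and 0.21 without control replicate 1. It was 0.10 and 0.12 without Ythdf2-vKO replicates 1 and 2. DESeq2's Wald test gave 8 genes higher at an unadjusted p under 0.05, or 10% of the 80 members, against 4.69% of all genes. Calls after adjustment also shifted. The log2 fold changes of Kcnc2 and Kcnh3 were -1.98 and 2.12 without Ythdf2-vKO replicate 1, and -1.37 and 2.40 without Ythdf2-vKO replicate 2. Their calls by edgeR were lost in both fits, where calls fell over the whole table as well as among the members. Without control replicate 1, 5 were called higher (among them Kcnh2, Kcnh3, Kcnk13 and Kcnt1), and without control replicate 2, 3 were (Kcnh3, Kcnk13 and Kcnq5). These are 7.69% and 4.62% of the members tested. Calls over the whole table also grew in these fits, from 59 genes higher to 1075 (5.09%) and 574 (2.72%). Kcnc2 was called lower in both of these fits.

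Markers of other cells moved with the same contrast. Of 7 Sertoli cell markers, 7 had a positive log2 fold change and they summed to 806 and 864 CPM in control against 1154 and 1009 CPM in the Ythdf2-vKO group. At an unadjusted p under 0.05, 6 of them were higher, 1 of these also after adjustment by edgeR. The 6 elongating spermatid markers were all negative and summed to 8259 and 6881 CPM against 6223 and 6300 CPM. A list of 6 neuron and Schwann cell markers was included because Kcnc2, Kcnh3 and Kcnq5 are known from neurons, and these summed to 35.9 and 38.3 CPM against 56.6 and 50.2 CPM. Of the 5 tested, 3 were positive and 1, Tubb3, reached an unadjusted p under 0.05. The sums of 6 spermatogonial markers (92.9 and 92.2 against 113 and 101 CPM) and 4 endothelial markers (7.14 and 8.37 against 10.98 and 12.1 CPM) were also higher in both libraries labelled Ythdf2-vKO. All 6 Leydig cell markers had positive values, but their sums overlapped between the groups, as did those of spermatocyte, peritubular myoid and macrophage markers. The 5 round spermatid markers summed to 1042 and 988 CPM against 1055 and 1088 CPM, with 4 of 5 positive and none at an unadjusted p under 0.05. Their part in the results for channel genes was not tested. In whole tissue, fewer cells of a type and less RNA per cell cannot be told apart.

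Other genes of potassium handling were spread over both directions. The list held 39 genes (auxiliary subunits outside the Kcn names, related cyclic nucleotide-gated channels, pumps and cotransporters), of which 34 were tested. None was called by edgeR's quasi-likelihood test after adjustment, 4 were higher (11.8%) and 3 lower (8.82%) at an unadjusted p under 0.05, near the 7.65% and 6.47% of all genes, and the median log2 fold change was -0.015. The higher genes included the sodium-potassium pump beta subunits Atp1b2 (0.73) and Atp1b1 (0.36) and the potassium-chloride cotransporter Slc12a4 (0.55). Lower, beside Lrrc52, were Atp1a4 (-0.39), the pump subunit of sperm, and Slc9c1 (-0.53), the sperm sodium-proton exchanger. Atp1b2 had the lowest adjusted p of the list, 0.0603, and it passed the threshold when scaled by library totals (0.0169) or fitted with the GC offset (0.0438). DESeq2's Wald test called 2 genes of the list, Atp1b2 and Slc9c1, against 217 of 25265 genes in the table. With the GC offset, 2 genes of the list were higher and 3 lower at an unadjusted p under 0.05. Of all genes tested, 6.1% were higher and 7.6% lower in that fit. The difference between this list and the channel genes was not tested.

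The motif GGACT, the core of the N6-methyladenosine consensus, was counted on the sense strand of the longest transcript. It occurred at a median of 1.02 per kb over all genes tested and in 85.9% of them. The members tested had a median of 1.015 per kb, the 14 higher members 1.032 and the other 51 members 1.015. It was present in 96.9% of the members tested, 92.9% of the 14 and 98.0% of the other 51, and the members' longest transcripts had a median of 3806 nt, against 2652 nt for all genes. Kcnc2 held 4 matches in 5046 nt (0.793 per kb), Kcnh3 held 2 in 3698 nt (0.541 per kb) and Kcnu1 held 7 in 3536 nt (1.98 per kb). These are matches of letters and not measured sites of methylation or binding.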

How the data were processed

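Total RNA of whole testis was depleted of ribosomal RNA and made into directional libraries, per the labels' protocols. HISAT2 2.1.0 and HTSeq 0.6.1p1 are named in the submitters' processing notes; their settings, strand use and the genome build are not given in the sources used here. The authors deposited raw counts per gene for the 4 libraries. The same deposited table holds a mean normalized signal, log2 fold changes with standard errors, a test statistic (a score) and p-values with adjusted p-values from the authors' own comparison, named by the file headers. The mean signal was recomputed from the counts to within 4.93e-10 (relative). Every gene in the table had at least 10 counts over the 4 libraries.

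From the counts, edgeR 4.0.16 (R 4.3.3) tested Ythdf2-vKO against control with genotype alone, trimmed mean of M-values scaling, filterByExpr, robust quasi-likelihood F tests, and Benjamini-Hochberg adjustment over the 21132 genes tested; calls are at an adjusted p under 0.05. The biological coefficient of variation was 13.51%. Replicates differed beyond sampling noise (chi-square per degree of freedom 21.17 in control, 8.415 in Ythdf2-vKO). The test was checked on simulated counts, with changes placed only in genes of higher counts. The check therefore does not cover members of low counts. Lengths, GC content and coordinates came from GENCODE M21 (GRCm38), which matched 25241 gene IDs and missed 24. Named genes are Ythdf2, Kcnc2, Kcnu1, members at an unadjusted p under 0.05, the 10 highest per kb, the member with most counts in each class, and listed partners at that p with Lrrc52; others are given where a sentence compares them. The members and lists were chosen with earlier results of these data known. Alternatives were DESeq2 1.42.0 size factors and Wald test, library totals, 2 other filters, a non-robust fit and a replicate block. The others were a GC offset (loess of R 4.3.3) alone and with the block, and leaving out each library. A few genes that the rule names are not reported here.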

Additional observations from a re-analysis of the deposited data

How the results depend on the processing

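Kcnc2 kept its direction under all 13 alternatives, with a log2 fold change from -1.98 to -1.37 when 1 library was left out, and lost its call in 2 of them. Members called higher numbered 2 with library totals, 3 with the replicate block and 0 to 5 when 1 library was left out. Over all genes, calls higher went from 59 to 181, 627 and 16 to 1075 in these fits. Without either Ythdf2-vKO replicate, calls lower fell both among the members and over all genes. At an unadjusted p under 0.05, 8 members were higher by DESeq2's Wald test (10%, against 4.69% of all genes). Fewer than the 14 reported were higher when 1 library was left out. The lower count was 2 with no filter (2.5%, against 5.80% of all genes) and 3 with the replicate block (4.62%, against 8.78%). It was 5 with the GC offset (7.69%, against 7.60%) and 6 with both (9.23%, against 9.63%). The lower count also rose when 1 library was left out. Its share was then near that of all genes, except without control replicate 1, where it stayed below. The family median stayed positive, between 0.022 (GC offset) and 0.212 (library totals). Library totals moved the median of all genes from 0.00265 to 0.0674.

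Log2 fold changes that changed sign were those of Kcne3 (0.027 with library totals), Kcnk5 (0.054 with library totals) and Kcng4 (-0.11 with the GC offset, -0.10 with the block as well). Without 1 library, Kcne3 ranged from -0.16 to 0.073, Kcnj9 from -0.38 to 0.055, Kcnk5 from -0.13 to 0.097 and Kcnmb4os2 from -0.39 to 0.047. The cause was not tested. Kcnk13 was called with library totals, with the block and without either control library, and Kcnq5 with the block and without control replicate 2.

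The deviations of same-numbered libraries from their group means correlated at 0.0932, and the libraries were treated as unpaired. With 2 libraries a group, both pairs give the same value by construction, so this is 1 value. The replicate block gave 1017 calls over all genes, against 83. A fit without 1 library assumes that the lone library varies like the others. DESeq2 gave no adjusted p for Kcna6, Kcnh5, Kcnj4 and Kcnq5. With 2 libraries a group and fewer than 20 counts in control for several members, folds of low genes are imprecise.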
